A study of Homo sapiens with 3 samples.

Results

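Reported targets of the microRNA miR-183-5p were followed in QBC-939, a human cell line that the labels give as cholangiocarcinoma, a cancer of the bile ducts. The set holds 10 genes that the literature names as miR-183-5p targets, found by gene name among the 30923 genes of the deposited table: PPP2CA, PPP2CB, AKAP12, KIF2A, EZR, ITGB1, BTRC, PDCD4, IDH2 and TAOK1. They were chosen by name from published reports, with earlier results of these data known. All 10 genes were measured, meaning a mean FPKM (fragments per kilobase of transcript, scaled to depth) of at least 1 over the libraries, as were 12675 genes in all. RNA sequencing was done on 3 libraries of wild-type QBC-939 cells, 1 for each group: cells overexpressing miR-183-5p, cells overexpressing miR-182-5p, and cells overexpressing NC, which the labels do not spell out and which was taken as the control. Counts in genes summed to 67427313 in the miR-183-5p library, 61709874 in the miR-182-5p library, against 64516706 in the NC library. With 1 library per group no test between conditions was possible, every ratio describes these libraries alone, and the 95% intervals (exact, Clopper-Pearson) cover counting error only, which reads without molecular identifiers understate. Mature microRNA levels were not analysed here, so the overexpression itself was not checked.

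A microRNA guides an Argonaute protein to messenger RNAs by pairing of its seed, the bases at positions 2 to 8, mostly with sites in the 3′ untranslated region (3′ UTR). The bound messenger is degraded or translated less, so a target can lose protein with little loss of RNA. miR-183-5p and miR-182-5p are made from the same gene cluster as miR-96-5p, and the cluster is known for its role in sensory cells and its abundance in many carcinomas. The mature sequences (RefSeq, GRCh38.p14, chromosome 7, minus strand) are shown because their seeds define the sites below, and capitals mark the seed.
miR-183-5p: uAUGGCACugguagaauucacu
miR-182-5p: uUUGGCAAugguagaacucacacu
miR-183-5p lies at chr7:129774967-129774988 and miR-182-5p at chr7:129770447-129770470. Over the 22 bases of miR-183-5p, 18 carry the same base in miR-182-5p at the same position, but only 5 of the 7 seed positions do, so the seeds call for different sites.

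A miR-183-5p site was taken as the 7 bases GTGCCAT, complementary to the seed, on the transcript strand, and as an 8-base site where an A follows. For each gene the longest 3′ UTR of GENCODE 29 (GRCh38) was searched, and 9 of the 10 targets held at least 1 such site, against 12.2% of 10601 measured genes searched, and 7 held an 8-base site, against 2.27%. Many reported targets were first picked by such sites, so this share is a property of the list and not a result of the experiment. The 10 genes held 14 sites in all, 8 of them 8-base sites, and 4 genes held more than 1. BTRC held none.

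The following windows show the sites of the genes described below, with the match in capitals, the position of the match in GRCh38 in the sentence after each group, and sequence from GENCODE transcripts. In the phosphatase gene PPP2CA the first site lies near the stop codon and the other near the end of the 3′ UTR.
PPP2CA, proximal: tttcacatggaccaaaagatGTGCCATa
PPP2CA, distal: ggttacagtgagcccagatcGTGCCATt
They lie at chr5:134197631-134197637 and chr5:134194666-134194672 on the minus strand, at bases 135 to 141 and 3100 to 3106 of a 3′ UTR of 3438 bases. AKAP12 is shown because it held the most sites, a pair of them almost side by side.
AKAP12, first: cacagtatatgatggggcatGTGCCATa
AKAP12, second: atagatactggattgtgtttGTGCCATa
AKAP12, last: attgtgtttgtgccatatttGTGCCATt
They begin at bases 460, 959 and 970 of a 3′ UTR of 2843 bases, at chr6:151356174-151356180, chr6:151356673-151356679 and chr6:151356684-151356690 on the plus strand. The next sites belong to the gene with the lowest ratio in the miR-183-5p library, and to the cortical linker EZR and the integrin ITGB1.
KIF2A: actagttaattttgcaggatGTGCCATa
EZR: acgtggcaggacttccatctGTGCCATa
ITGB1, proximal: ccaatagctttaaaacctgtGTGCCATt
ITGB1, distal: gcgagtcttactttgagttaGTGCCATa
They lie at chr5:62386187-62386193 (plus strand), chr6:158766540-158766546, chr10:32900941-32900947 and chr10:32900552-32900558 (all minus strand). The KIF2A site is in the 3′ UTR of the transcript KIF2A-201, which is not among the 18 transcripts that the deposited table lists for the gene, and none of the 3 listed transcripts with an annotated stop codon holds it. The next sites belong to PDCD4, IDH2 and TAOK1, and PDCD4 held 2 sites, of which 1 is shown.
PDCD4: taataagctaccttttgtaaGTGCCATg
IDH2: tattgcccttggaacacatgGTGCCATa
TAOK1: tcctttgcatttctccatttGTGCCATt
They lie at chr10:110898348-110898354 (plus strand), chr15:90084007-90084013 (minus strand) and chr17:29546595-29546601 (plus strand). Of 1468 sites in all measured genes, 95 (6.47%) matched the distal PPP2CA window at 20 or more of its 27 bases up to the end of the site. These 95 include the distal PPP2CA site itself and the PDCD4 site not shown, which begins at base 1664 and matched at 23 bases. PPP2CB held a single 8-base site at base 149 of a 3′ UTR of 625 bases. For miR-182-5p, whose site is TTGCCAA, BTRC alone of the 10 genes held a site, against 15.2% of all measured genes searched. Shorter matches of the bases TGCCAA were also found in EZR, PDCD4 and TAOK1, and in PDCD4 and TAOK1 an A followed.

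**Figure D1:**
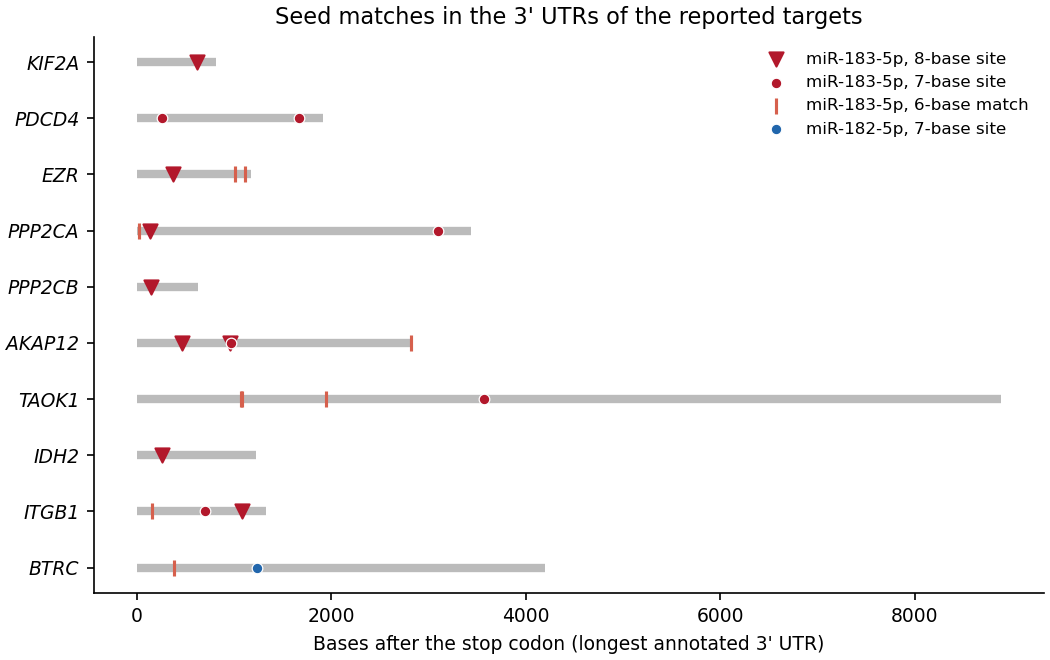
Seed matches along the longest annotated 3′ UTR of each reported target, drawn to scale in bases after the stop codon (horizontal axis). Shorter matches of miR-182-5p are not drawn. Triangles are 8-base sites, circles 7-base sites and ticks 6-base matches (pairing with seed positions 2 to 7) of miR-183-5p, and the blue circle is the miR-182-5p site of BTRC; 9 of the 10 genes hold a miR-183-5p site, and genes run from the lowest ratio in the miR-183-5p library (KIF2A, top) to the highest (BTRC).

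The cells expressed epithelial genes in all libraries. KRT19, a keratin of bile duct cells, had 77.7 FPKM in the miR-183-5p library, 76.3 in the miR-182-5p library, against 81.6 in the NC library, and EPCAM had 179, 178 and 171 FPKM in the same order, whereas KRT7, also a bile duct keratin, had 1.46, 1.29 and 1.03 FPKM. The identity of the line was not assessed beyond these markers. The 8 epithelial markers summed to 5770, 5320 and 6440 CPM (each gene's count over the library total, the usual scale of sequencing counts). Of the 7 mesenchymal markers only COL1A1 was measured, and the 4 found in the table summed to 16.2, 23.9 and 14.9 CPM. The leukocyte gene PTPRC was at or below 0.0119 FPKM and the hepatocyte gene ALB at or below 0.0318, but LYZ, found in secretory epithelium as well as in macrophages, had 710, 741 and 771 FPKM, and SERPINA1, made by hepatocytes and some epithelia, had 198, 234 and 169. The 4 hepatocyte markers summed to 1150, 1360 and 996 CPM and the 5 leukocyte and endothelial markers found in the table to 1450, 1520 and 1600 CPM. Mitochondrially encoded genes took 16.1% of counts in the miR-183-5p library, 16.7% in the miR-182-5p library, against 13.5% in the NC library, which lowers the CPM of nuclear genes in both microRNA libraries. The part of these differences in the ratios below was not tested beyond the rescaling without mitochondrially encoded genes.

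The levels of the 10 genes spanned from ITGB1, at 64.1 FPKM in the miR-183-5p library, 65.4 in the miR-182-5p library, against 62.1 in the NC library, to BTRC, at 3.63, 3.36 and 3.06 FPKM. In the NC library the order was ITGB1, EZR, IDH2, PPP2CA, PDCD4, AKAP12, KIF2A, TAOK1, PPP2CB and BTRC, and the counting intervals of all neighbours were apart except those of KIF2A and TAOK1. The order of the others was the same in all 3 libraries, but TAOK1 stood above KIF2A in the miR-183-5p library, and above both AKAP12 and KIF2A in the miR-182-5p library.

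**Figure D2:**
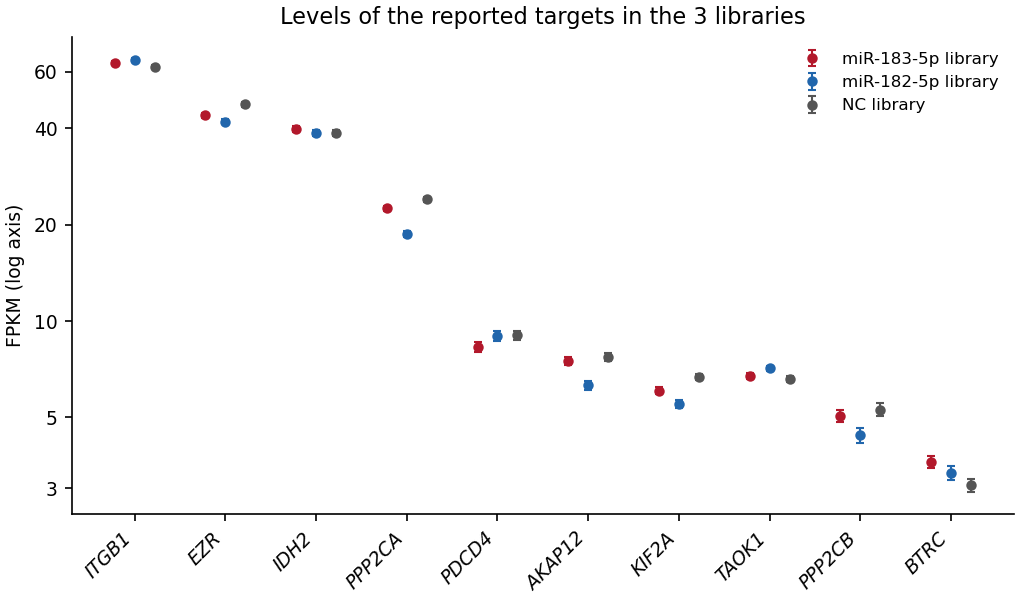
FPKM (log axis) of each reported target in the miR-183-5p, miR-182-5p and NC libraries, with bars for the 95% counting interval; genes are ordered by their level in the NC library, from ITGB1 (62.1 FPKM) to BTRC (3.06 FPKM). Each point is 1 library, and the differences between libraries are small beside those between genes.

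The comparison of the miR-183-5p library with the NC library addressed whether the messengers of the reported targets were lower where that microRNA was overexpressed. Small differences in both directions were seen: 6 of the 10 genes had a CPM ratio below 1 and 4 above, from 0.894 for KIF2A to 1.17 for BTRC, with a median of -0.07 on the log2 scale. Over all 12675 measured genes the median log2 ratio was -0.03, and 57.2% of genes were below 1. A gene was called lower or higher at 1.2-fold or more, and 0 of the 10 were called lower, where 10.7% of all measured genes were, and 0 higher, where 10.5% were. Among all genes with a mean FPKM of at least 5, 8.74% were called lower and 3.66% higher. The 8 of the 10 that passed this filter had a median of -0.09, against -0.06 over all 6555 such genes. Counting intervals lay below 1 for 5 of the 10 genes, against 37.4% of all measured genes, and above 1 for 2, against 24.5%. The lowest of the 10, KIF2A, still had 23.5% of measured genes below it.

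PPP2CA and PPP2CB encode the alternative catalytic subunits of protein phosphatase 2A (PP2A), which removes phosphate from serine and threonine of many kinases and their substrates. PPP2CA (ENSG00000113575) lies at chr5:134194332-134226073 and PPP2CB (ENSG00000104695) at chr8:30774457-30814314, both on the minus strand (coordinates of genes are those of the deposited table and overlap the same genes in GRCh38). PPP2CA had 22.5 FPKM in the miR-183-5p library (10046 counts), 18.7 FPKM in the miR-182-5p library (7667 counts) and 24.0 FPKM in the NC library (10409 counts). PPP2CB had 5.05 FPKM (1824 counts), 4.39 FPKM (1453 counts) and 5.28 FPKM (1852 counts) in the same order. Both genes were lowest in the miR-182-5p library and highest in the NC library. The CPM ratio of the miR-183-5p to the NC library was 0.923 for PPP2CA (0.898 to 0.949) and 0.942 for PPP2CB (0.883 to 1.01), so the interval of PPP2CB included 1. PPP2CA made up 81.7% of the summed FPKM of both subunits in the miR-183-5p library, 81.0% in the miR-182-5p library, against 82.0% in the NC library. The sum was 0.940 times that of NC in the miR-183-5p library and 0.790 times in the miR-182-5p library. The transcripts share no 50-base stretch (the longest shared one has 26 bases), and the noncoding genes that overlap PPP2CA on its strand held at most 78 counts in any library.

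AKAP12 encodes a scaffold that anchors protein kinase A and protein kinase C at the membrane and is often silenced in carcinomas. The gene (ENSG00000131016) lies at chr6:151239967-151358559 on the plus strand. It had 7.51 FPKM in the miR-183-5p library (5260 counts), 6.30 FPKM in the miR-182-5p library (4040 counts) and 7.73 FPKM in the NC library (5259 counts). The miR-182-5p library was the low one, and the other libraries were close to each other. Its ratio of the miR-183-5p to the NC library was 0.957 (0.921 to 0.994), and it held 3 miR-183-5p sites, the most of the set.

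KIF2A, EZR and ITGB1 serve the cytoskeleton and its contact with the matrix. They lie at chr5:62306162-62391025 on the plus strand (KIF2A, ENSG00000068796), chr6:158765741-158819349 on the minus strand (EZR, ENSG00000092820) and chr10:32900318-33005792 on the minus strand (ITGB1, ENSG00000150093). KIF2A, a kinesin that depolymerises microtubule ends, had 6.07 FPKM in the miR-183-5p library (6327 counts), 5.50 FPKM in the miR-182-5p library (5257 counts) and 6.69 FPKM in the NC library (6772 counts), a ratio of the miR-183-5p to the NC library of 0.894 (0.864 to 0.925). EZR, which encodes ezrin, a linker of the plasma membrane to cortical actin in microvilli, had 44.0 FPKM (11582 counts), 42.0 FPKM (10125 counts) and 47.5 FPKM (12154 counts) in the same order, a ratio of 0.912 (0.889 to 0.935). Both were lower in each microRNA library than in NC, and lowest with miR-182-5p. ITGB1, the beta 1 subunit shared by many matrix receptors, went the other way, with 64.1 FPKM (30798 counts), 65.4 FPKM (28735 counts) and 62.1 FPKM (28964 counts). Its ratio was 1.02 (1.001 to 1.03), and it held 2 sites. KIF2A shares its locus with DIMT1 on the opposite strand, which held 1104, 929 and 1277 counts. Whether the counting used strand is not given in the sources used here.

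BTRC and PDCD4 are linked as enzyme and substrate: BTRC encodes beta-TrCP, the substrate receptor of an SCF ubiquitin ligase, and PDCD4, an inhibitor of the translation helicase eIF4A, is among the proteins it marks for destruction. Both are on the plus strand, BTRC (ENSG00000166167) at chr10:101354033-101557319 and PDCD4 (ENSG00000150593) at chr10:110871795-110900006. BTRC had 3.63 FPKM in the miR-183-5p library (1917 counts), 3.36 FPKM in the miR-182-5p library (1625 counts) and 3.06 FPKM in the NC library (1573 counts). It was highest in the miR-183-5p library, at 1.17 times NC (1.09 to 1.25), with 87.0% of measured genes below it. PDCD4 had 8.32 FPKM (3025 counts), 9.0 FPKM (2995 counts) and 9.02 FPKM (3184 counts) in the same order. It was low in the miR-183-5p library alone, at 0.909 times NC (0.865 to 0.956). It overlaps BBIP1 on the opposite strand, which held 1062, 1151 and 926 counts.

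IDH2 and TAOK1 stood close to NC in the miR-183-5p library. IDH2 (ENSG00000182054) lies at chr15:90083045-90102468 on the minus strand and TAOK1 (ENSG00000160551) at chr17:29390464-29551904 on the plus strand. IDH2, the mitochondrial isocitrate dehydrogenase that makes NADPH and 2-oxoglutarate, had 39.7 FPKM (8838 counts) in the miR-183-5p library, 38.7 FPKM (7886 counts) in the miR-182-5p library, against 38.6 FPKM (8336 counts) in the NC library, and a ratio of 1.01 (0.984 to 1.05). TAOK1, a kinase upstream of p38 and Hippo signalling, had 6.74 FPKM (9139 counts), 7.11 FPKM (8830 counts) and 6.59 FPKM (8682 counts), and a ratio of 1.01 (0.978 to 1.04). Both intervals included 1.

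**Figure D3:**
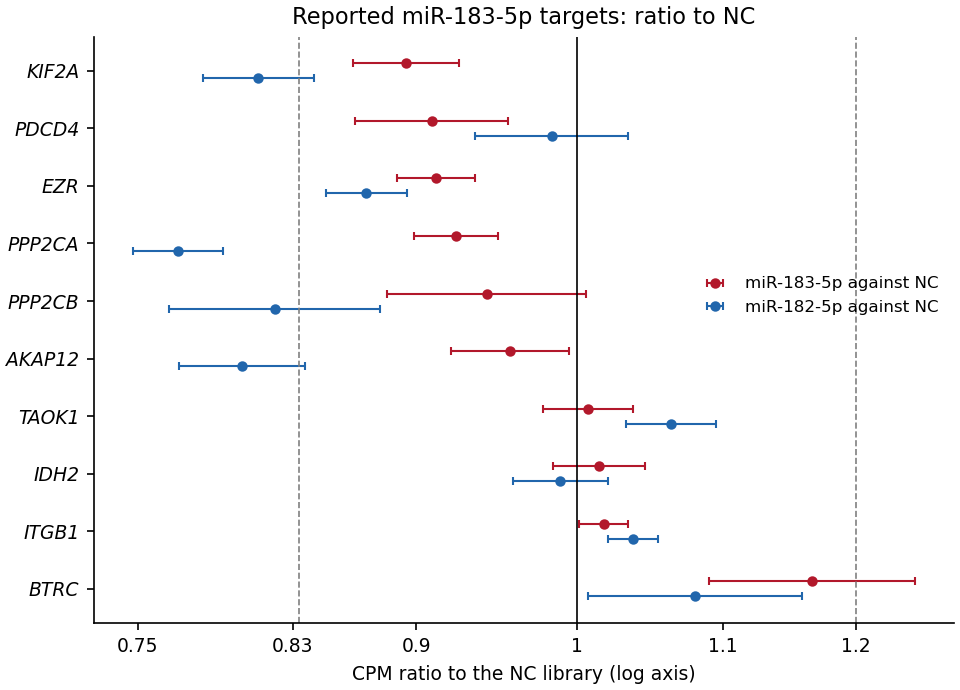
CPM ratio to the NC library (log axis) of each reported target, in red for the miR-183-5p library and in blue for the miR-182-5p library, with 95% counting intervals; dashed lines mark 1.2-fold. In the miR-183-5p library no gene passes a dashed line, and in the miR-182-5p library PPP2CA (0.770), AKAP12 (0.803), KIF2A (0.812) and PPP2CB (0.820) do.

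Set by site, the 7 genes with an 8-base site had a median log2 ratio of -0.09 with miR-183-5p and -0.29 with miR-182-5p. Of these, 5 of 7 and 6 of 7 were below 1, where 57.2% and 52.5% of all measured genes, not matched by level, were. In the miR-182-5p library IDH2 was below 1 by CPM but not by FPKM. Not every listed transcript with an annotated stop codon held the site: 0 of 3 did for KIF2A, 1 of 2 for PPP2CB and 1 of 3 for IDH2. Of the 2 genes with 7-base sites alone, PDCD4 was below and TAOK1 above 1 in the miR-183-5p library, and BTRC, with no site, was above 1. Across the transcriptome, 1289 measured genes with a miR-183-5p site had a median log2 ratio of -0.04 in the miR-183-5p library, against -0.05 for 6444 genes without the 6-base match. The share called lower was 8.38% of genes with a site and 9.99% of genes without. The 241 genes with an 8-base site had a median of -0.06, and 7.05% of them were called lower. In the miR-182-5p library their median was -0.01, against -0.06 for genes without a match. Genes with a site have longer 3′ UTRs (median 3024 bases, against 798 bases without), which was not adjusted for.

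Setting the miR-182-5p library against the NC library measured the same genes under the related microRNA. BTRC alone held a site complementary to its whole seed. This comparison shares its NC library with the comparison above, so an unusual NC value moves both. Here 4 of the 10 genes were called lower, where 20.5% of all measured genes were, and 0 higher, where 22.1% were. PPP2CA was lowest at 0.770 times NC (0.748 to 0.793), followed by AKAP12 at 0.803 (0.771 to 0.837), KIF2A at 0.812 (0.783 to 0.841) and PPP2CB at 0.820 (0.765 to 0.879). Measured genes with lower ratios numbered 10.8% for PPP2CA and 18.3% for PPP2CB, so none of these genes was extreme in this library. The count of 4 is above the background share but rests on 10 genes and 1 library per group, and it was 1 of 10 with totals without mitochondrially encoded genes (background 15.4%) and with log2 of FPKM plus 1 (background 14.5%).

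EZR was at 0.871 in the miR-182-5p library (0.848 to 0.894). PDCD4 was at 0.983 (0.935 to 1.03) and IDH2 at 0.989 (0.959 to 1.02). ITGB1 was at 1.04 (1.02 to 1.05), TAOK1 at 1.06 (1.03 to 1.1) and BTRC, with its miR-182-5p site, at 1.08 (1.01 to 1.16). With size factors from TMM or the median of ratios, ITGB1 was below 1. Intervals lay below 1 for 5 of the 10, against 39.6% of all measured genes, and above 1 for 3, against 35.1%. On the log2 scale the 10 genes had a median ratio of -0.11, against -0.02 over all measured genes. Among genes with a mean FPKM of at least 5, which 8 of the 10 passed, the medians were close. They were -0.11 for these 8 and -0.10 over all 6555 genes. Called lower were 3 of the 8, against 26.2% of the 6555.

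**Figure D4:**
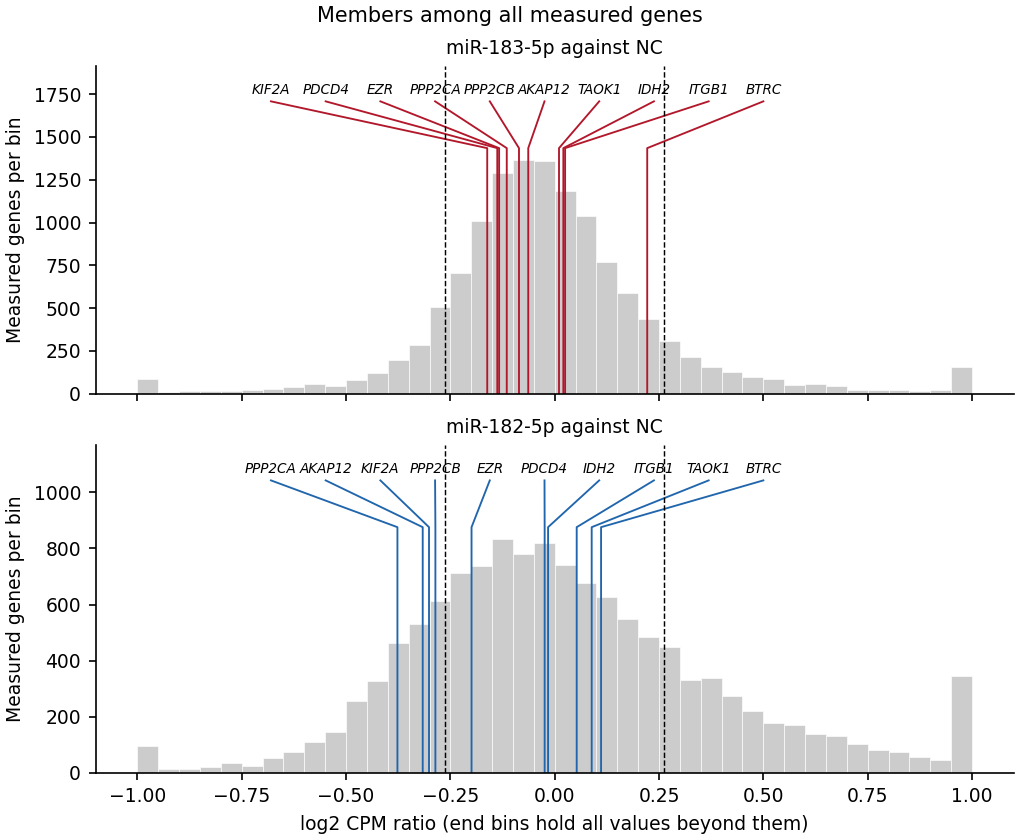
Number of measured genes per bin of 0.05 of the log2 CPM ratio (grey bars; the end bins also hold all values beyond them) with the 10 reported targets as lines, for the miR-183-5p library against NC (top) and the miR-182-5p library against NC (bottom). Dashed lines mark 1.2-fold; in the top panel all 10 lines fall between them, and in the bottom panel 4 lie to the left.

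Between the microRNA libraries, 7 of the 10 genes were higher in the miR-183-5p than in the miR-182-5p library. Of the 10, 0 were called higher, where 9.07% of all measured genes were, and 0 lower, where 16.2% were. PPP2CA lay just short of the call at 1.199 (1.16 to 1.24), AKAP12 was at 1.19 (1.14 to 1.24), PPP2CB at 1.15 (1.07 to 1.23) and KIF2A at 1.1 (1.06 to 1.14). EZR was at 1.05, BTRC at 1.08 and IDH2 at 1.03, the last with an interval that included 1 (0.995 to 1.06). PDCD4 was the lowest, at 0.924 (0.879 to 0.973), then TAOK1 at 0.947 (0.920 to 0.975) and ITGB1 at 0.981 (0.965 to 0.997). ITGB1 was above 1 with size factors from TMM or the median of ratios. Intervals lay above 1 for 6, against 30.4% of all measured genes, and below 1 for 3, against 34.9%. With size factors from TMM or the median of ratios, 3 of the 10 were called higher, where 16.0% and 15.8% of measured genes were.

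Genes that work with the reported targets, and other reported miR-183-5p targets, were described from 10 lists, 147 measured genes in all. In the miR-183-5p library 8 of these (5.44%) were called lower and 1 (0.680%) higher, where 10.7% and 10.5% of all measured genes were. Of the 8, 2 came from the list of other reported targets. Among all genes with a mean FPKM of at least 5 these shares were 8.74% and 3.66%, and 3 and 0 of the 103 related genes above that level were called. In the miR-182-5p library 36 (24.5%) were called lower and 15 (10.2%) higher, where 20.5% and 22.1% of all measured genes were. The median log2 ratio was -0.07 with miR-183-5p and -0.11 with miR-182-5p, and over all measured genes -0.03 and -0.02. Over all genes with a mean FPKM of at least 5 the medians were -0.06 and -0.10.

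Of 26 measured genes around PP2A, 20 were below 1 in the miR-183-5p library, where 57.2% of all measured genes were. This background depends on level. Among genes searched for sites, 60.6% with a miR-183-5p site and 61.7% without a match were below 1. At a mean FPKM of at least 5 these shares were 66.4% and 68.4%. Neither this list nor those below were compared with genes matched by level. The PP2A list holds regulatory subunits and modulators, and also PPP4C (0.902) and PPP6C (0.961), catalytic subunits of related phosphatases. The median log2 ratio was -0.10, and 0 were called lower and 1 higher. The one called higher was STRN, the striatin scaffold of a PP2A kinase complex, at 1.21 times NC (1.15 to 1.27), which overlaps another gene on its strand. SET, an inhibitor of PP2A and the most abundant of the list at 97.8 FPKM in the miR-183-5p library, 82.1 in the miR-182-5p library, against 106 in the NC library, was at 0.906 (0.892 to 0.919). In the miR-182-5p library 8 of the 26 were called lower and 2 higher, with a median of -0.11, against the same background of 20.5% and 22.1%.

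Among 14 A-kinase anchors and protein kinase A subunits, 0 were called in either direction with miR-183-5p and the median was 0.01. AKAP1, a mitochondrial anchor and the most abundant, was at 0.932 (0.909 to 0.955). The 8 genes of microtubule depolymerisation had a median of 0.04 and no call. Their most abundant member, the plus-end binder MAPRE1, was at 0.877 (0.853 to 0.901), and the close relative of KIF2A, KIF2C, was at 0.983 (0.952 to 1.01). KIF2C and the other relatives RDX, FBXW11, TAOK2 and TAOK3 named below were chosen after their values were seen.

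Of the 14 genes around ezrin, 0 were called and the median was -0.06. The relatives of ezrin were both a little lower in the miR-183-5p library, MSN (moesin) at 0.903 (0.892 to 0.913) and RDX (radixin) at 0.921 (0.863 to 0.983). Of the 20 measured integrin and adhesion genes 0 were called with miR-183-5p and the median was -0.04, whereas with miR-182-5p 7 were called higher and 1 lower, where 22.1% and 20.5% of all measured genes were. ITGB4, the beta 4 subunit of hemidesmosomes and the most abundant, was at 1.16 times NC in the miR-183-5p library (1.15 to 1.17).

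In the ubiquitin ligase list 13 of 17 genes were below 1, where 57.2% of all measured genes were, and the median was -0.13. That background was not matched to the list by level. Of all measured genes 10.7% were called lower, and of the list 1 was. That gene was NFKBIA, the NF-kB inhibitor that beta-TrCP marks for destruction, at 9.32 FPKM in the miR-183-5p library, 11.1 in the miR-182-5p library, against 13.5 in the NC library, a ratio of 0.683 (0.642 to 0.726). ATF4, a stress transcription factor and the most abundant, was at 0.935 (0.919 to 0.951). FBXW11, the near relative of BTRC, was at 0.846 (0.815 to 0.879), on the other side of 1 from BTRC. Of 13 translation genes around PDCD4, 9 were below 1 with a median of -0.13 and 2 were called lower, against the same shares of all measured genes. EIF4E, the cap-binding protein, was called at 0.801 (0.760 to 0.843). EIF4A1, the helicase that PDCD4 inhibits, was called at 0.823 (0.813 to 0.834). It had 109 FPKM in the miR-183-5p library, 88.1 in the miR-182-5p library, against 131 in the NC library. EIF4E and EIF4A1 both overlap another gene on their strand.

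Of 15 enzymes around isocitrate, 14 were below 1 in the miR-183-5p library, with a median of -0.15, and 2 were called lower. Of all measured genes, not matched to the list by level, 57.2% were below 1 and 10.7% were called lower. Those called in the list were OGDH, a subunit of the 2-oxoglutarate dehydrogenase complex, at 0.825 (0.802 to 0.849), and the mitochondrial deacetylase SIRT3 at 0.802 (0.721 to 0.893). IDH1, the cytosolic counterpart of IDH2 and the most abundant in the NC library but not in the miR-183-5p library, was at 0.881 (0.863 to 0.90), while IDH2 itself was at 1.01. In the miR-182-5p library 8 of the 15 were called lower, with a median of -0.26, where 20.5% of all measured genes and 26.2% of those with a mean FPKM of at least 5 were. Among 13 kinases and adaptors of the Hippo and p38 pathways the median was -0.06, MAP2K4, a kinase upstream of JNK and p38, was called lower at 0.757 (0.695 to 0.824), and MAP2K3, the most abundant in the NC library alone, was at 0.869 (0.833 to 0.907). The relatives of TAOK1 stood on both sides of 1, TAOK2 at 1.07 (1.03 to 1.1) and TAOK3 at 0.881 (0.812 to 0.955).

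Of 10 other genes reported as miR-183-5p targets and found in the table, 7 were measured. Of these 7, 3 were below 1 and the median was 0.04. But 2 were called lower, where 10.7% of all measured genes and none of the 10 genes of the set were. SOCS6, a suppressor of cytokine signalling, had 3.23 FPKM in the miR-183-5p library, 3.43 in the miR-182-5p library, against 4.22 in the NC library, a ratio of 0.754 (0.705 to 0.807). FOXO1, a growth-restraining transcription factor, had 1.56, 1.66 and 1.91 FPKM in the same order, a ratio of 0.803 (0.727 to 0.886). Both were lower than NC in the miR-182-5p library too, SOCS6 at 0.802 (0.748 to 0.859) and FOXO1 at 0.855 (0.774 to 0.944). BMI1, a Polycomb protein and the most abundant of the measured ones in the NC library alone, was at 0.903 (0.866 to 0.940). The 3 genes that were not measured all had ratios below 1 in the miR-183-5p library. HPGD had 0.751, 0.781 and 1.12 FPKM in the same order, a ratio of 0.66 (0.573 to 0.76). DKK3 was at 0.655 (0.297 to 1.4) and ZEB1 at 0.957 (0.534 to 1.71), both on few counts. These genes were named after their values were seen.

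**Figure D5:**
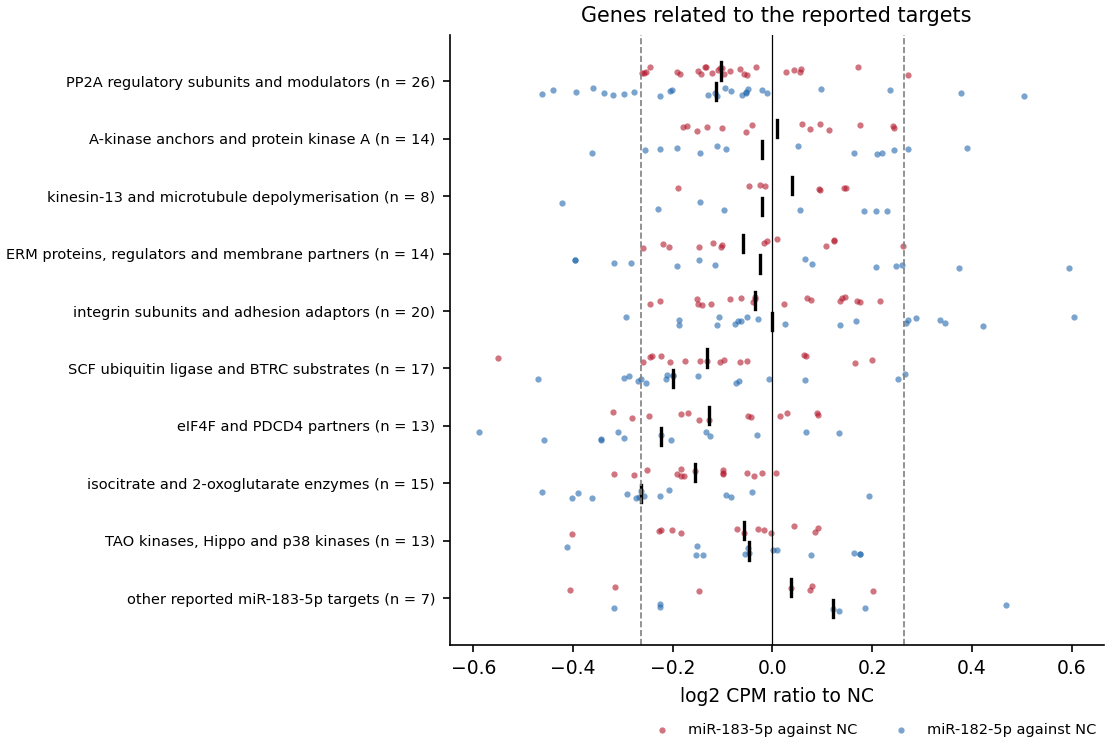
log2 CPM ratio to NC of the measured genes of 10 lists related to the reported targets, in red for the miR-183-5p library and in blue for the miR-182-5p library; each point is a gene, black bars are list medians, n is the number of measured genes and dashed lines mark 1.2-fold. The isocitrate list has the lowest medians, at -0.15 with miR-183-5p and -0.26 with miR-182-5p.

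In the pathway annotation deposited with the table, the largest group shared by the reported targets was the tight junction pathway, which listed PPP2CA, PPP2CB, EZR and ITGB1. Its 113 measured genes had a median log2 ratio of -0.07 with miR-183-5p and -0.05 with miR-182-5p. The Hippo pathway listed PPP2CA, PPP2CB and BTRC, and its 96 measured genes had medians of -0.06 and -0.04.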

How the data were processed

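Whole-number gene counts and FPKM values were used as deposited by the authors, per the file headers. Per the submitters' processing notes, reads were trimmed with cutadapt 1.9 and checked with FastQC, and the build is given as GRCm38, a mouse assembly. The identifiers are human, and of the 97.3% found in GENCODE 29 (GRCh38), 99.77% overlap the same gene there. Aligner, counter and strand setting: not given in the sources used here.

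CPM are counts over the library total. Ratios are CPM ratios, with exact 95% intervals conditional on the sum of both counts, computed in Python 3.11.15 with scipy 1.17.1. The fixed design set 1.2-fold as a rule of size, named all 10 genes and, from each list, the genes past 1.2-fold (up to 4 a side) and the most abundant. The genes and lists were chosen with earlier results of these data known. TMM factors came from edgeR 4.0.16 and median-of-ratios factors from DESeq2 1.42.0. Settings tried were these factors, FPKM scales, filters, other folds and other site definitions. The procedure was tested on simulated data. The sequences of 2 sites are not reported here.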

Additional observations from a re-analysis of the deposited data

How the results depend on the processing

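With 1 library per group no replicate could be left out. No paired analysis was possible because each group has 1 library. For miR-183-5p against NC at 1.1-fold, 2 of the 10 genes were called lower and 1 higher (all measured genes 28.0% and 20.6%). By intervals 5 were lower and 2 higher, where 37.4% and 24.5% of all measured genes were. With totals without mitochondrially encoded genes 1 (BTRC) was called higher, where 13.1% of all measured genes were. For miR-182-5p against NC, 1 was called lower with log2 of FPKM + 1, where 14.5% of all measured genes were. Totals without mitochondrially encoded genes also gave 1 lower (15.4% of all measured genes). At 1.5-fold 0 were lower (2.79%), and by intervals 3 were higher (35.1%). Between the microRNA libraries, 3 were called higher with TMM (16.0% of all measured genes) and with median-of-ratios factors (15.8%). At 1.1-fold 4 were higher (23.3%), and by intervals 6 were higher and 3 lower (30.4% and 34.9%). Of 150 values of single genes under another scaling, 39 left their counting interval and none of the called ones changed sign. Some uncalled log2 ratios did. ITGB1 in the miR-182-5p library against NC went from 0.0527 to -0.0066 (TMM) and -0.0088 (median of ratios). Between the microRNA libraries it went from -0.0278 to 0.042 and 0.0407 with those factors. Without mitochondrially encoded genes in the totals, PDCD4 and IDH2 with miR-182-5p went from -0.0241 and -0.0159 to 0.0315 and 0.0397. IDH2 with miR-182-5p was also above 0 by FPKM ratio (0.0043) and by log2 of FPKM + 1 (0.0042). Of the 147 related genes with miR-183-5p, 3 were called lower with log2 of FPKM + 1, where 5.67% of all measured genes were. With a mean FPKM of at least 5, 3 of 103 were called lower, where 8.74% of all such genes were. The number called higher was 4 with FPKM ratios (11.7% of all measured genes) and with totals without mitochondrially encoded genes (13.1%). It was 2 with TMM and median-of-ratios factors (11.0% and 10.8%), and 6 of 164 with no filter (28.4% of all genes). It was 0 without same-strand overlap (8.73%) and in genes of mean FPKM 5 or more (3.66%). At 1.1-fold 51 of the 147 were lower and 16 higher, where 28.0% and 20.6% of all measured genes were. By intervals the numbers were 81 and 33 (37.4% and 24.5%), and at 1.5-fold 0 and 0 (1.96% and 3.03%). The median of genes with a miR-183-5p site minus that of genes without was 0.01 on the log2 scale, -0.0053 with 8-base sites, -0.0153 with at least 2 sites (chosen after seeing the data) and 0.0419 in the miR-182-5p library. The cause of these shifts was not tested. Counting error limited BTRC and PPP2CB most.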
